A study of Mus musculus with 2 samples.

Results

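Distal intronic elements were the regions of a whole-genome reporter assay whose centre lay inside a gene but in no exon. Each centre lay over 1000 bp from every transcription start in the basic set of the GENCODE M21 annotation. The elements also had at least 40% G plus C and at most 50% repeat-masked bases. Of the 14627 regions that the authors listed on chromosomes 1 to 19, 5435 had their centre inside a gene and in no exon of the GENCODE M21 basic set. Of these, 3419 were distal, 3187 also met the GC limit, and 2888 (19.74% of the listed regions) met all limits. The rule used neither the sign nor the size of the measured effect, but it was chosen with earlier results of these data known. Each region had also been listed by the authors at an adjusted p below 0.01.

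The assay was STARR-seq, in which genomic fragments sit inside a reporter transcript on an episome, so that a fragment that enhances transcription is copied into RNA more often than its share of the DNA. It was run in activated T helper 1 (Th1) primary cells of C57BL/6NJ mice, with 2 output libraries that the labels call biological replicates and give the same donor identifier. Both received interleukin-2, interleukin-12 p70 and an antibody to interleukin-4 for 4 days, antibodies to CD3e and CD28 for 3 days, and the reporter episome by transient transfection. The doses stated were 10 ng/mL for each interleukin, 2 ug/mL for the antibody to interleukin-4, 0.25 ug/mL for that to CD3e and 1 ug/mL for that to CD28. Only the CD3e dose was read for both libraries, and age and sex were not given. No untreated cells or other cell type were part of the series, and no expression values were used here with which to set the Th1 label against marker genes. A single table gave 1 effect for each region from both libraries together, so no value per library, replicate error or depth could be given. Its sign and scale are not explained in the sources used here, and a positive effect is read here as more RNA output than input.

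Introns hold many of the enhancers known in mammalian genomes, and an enhancer in an intron can act on the gene around it or on a neighbour. Enhancers are short stretches of DNA that bind several transcription factors at once. In activated T cells these include AP-1 (dimers of Fos, Jun and Batf proteins made after T cell receptor signalling), NFAT, NF-kB, RUNX, ETS and STAT factors, the last of which carry signals from cytokine receptors. A plasmid reporter tests the DNA outside its place in the chromosome, so its value says what a fragment can do in these cells and not what its locus does.

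The elements are shown first as DNA, because those with high and low effects differed in base composition. The lines below give the plus strand of GRCm38, the assembly named mm10 in the deposited table, 5′ to 3′, over the central 200 bases of each element, or the whole element where shorter. Capitals mark exact matches, on either strand, to any of 34 consensus sequences of transcription factors. The first 3 were among the highest and lowest effects of elements found once in the genome, and the others had the highest effect among elements in T cell genes of a list.
Gm41414, chr16:5352476-5352675: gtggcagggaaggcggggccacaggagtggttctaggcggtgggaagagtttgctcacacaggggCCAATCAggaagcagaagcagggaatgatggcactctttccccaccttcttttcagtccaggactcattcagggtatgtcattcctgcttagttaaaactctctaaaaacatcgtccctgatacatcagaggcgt
Gm48099, chr14:19279176-19279375: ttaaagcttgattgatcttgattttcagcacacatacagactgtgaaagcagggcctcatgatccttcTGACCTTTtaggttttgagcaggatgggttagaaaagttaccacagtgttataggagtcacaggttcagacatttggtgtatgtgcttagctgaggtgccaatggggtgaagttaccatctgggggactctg
Prdm11, chr2:93014526-93014725: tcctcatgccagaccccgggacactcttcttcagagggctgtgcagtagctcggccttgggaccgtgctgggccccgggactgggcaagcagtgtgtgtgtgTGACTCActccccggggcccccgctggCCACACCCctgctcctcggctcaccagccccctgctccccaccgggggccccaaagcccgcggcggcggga
Runx1, chr16:92620951-92621150: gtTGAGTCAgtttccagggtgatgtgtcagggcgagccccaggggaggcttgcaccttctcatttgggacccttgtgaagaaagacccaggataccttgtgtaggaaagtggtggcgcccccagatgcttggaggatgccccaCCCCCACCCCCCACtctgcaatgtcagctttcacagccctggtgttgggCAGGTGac
Tox2, chr2:163285751-163285950: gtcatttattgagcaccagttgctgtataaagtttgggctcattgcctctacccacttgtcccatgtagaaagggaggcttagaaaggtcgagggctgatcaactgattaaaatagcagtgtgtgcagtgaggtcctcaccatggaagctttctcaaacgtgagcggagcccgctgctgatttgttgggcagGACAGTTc
Cd44, chr2:102829301-102829475: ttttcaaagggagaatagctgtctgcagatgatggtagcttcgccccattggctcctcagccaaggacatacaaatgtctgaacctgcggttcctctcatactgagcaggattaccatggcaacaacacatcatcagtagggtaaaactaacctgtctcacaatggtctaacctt
Prkcq, chr2:11223876-11224000: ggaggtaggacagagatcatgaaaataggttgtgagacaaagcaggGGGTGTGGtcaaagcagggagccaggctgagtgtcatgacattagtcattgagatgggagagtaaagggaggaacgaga

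The Gm41414 element (intron 1 of 2 of a long non-coding RNA gene) had an effect of 4.56 and an NFY match (CCAATCA). At the low end, the Gm48099 element (intron 1 of 2 of a long non-coding RNA gene, 44.5% GC) had an effect of -3.07. The Prdm11 element (intron 1 of 6, 73.1% GC) had an effect of -3.08 while holding an AP-1 and a KLF match.

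Most distal intronic elements had a positive effect. Of 2888, 2501 (86.6%, 95% Wilson interval 85.3 to 87.8) were positive and 387 (13.4%) were negative, beside 80.6% positive among all listed regions and 74.8% among 7664 promoter regions. The effects of the members ran from -3.08 to 6.10 with a median of 0.71. Positive members had a median of 0.75, and 90% of them lay between 0.52 and 2.04. Negative members had a median of -0.96. No member lay between -0.43 and 0.37. Listed regions all had an adjusted p below 0.01, and whether that or another limit left this gap was not tested. Intervals on shares cover counting error over regions only.

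Positive effects were less frequent in introns than in other distal sequence. Among distal regions under the same GC and repeat limits, 90.8% of 2507 intergenic and 91.2% of 479 exonic elements were positive. In a logistic model with GC category, CpG observed over expected, log2 width and masked share, the odds of a positive effect in introns were 0.704 times those of intergenic elements (95% interval 0.580 to 0.854, p = 0.000379, two-sided Wald test, n = 5874 elements). Against exonic elements the odds ratio was 0.480 (0.318 to 0.724, p = 0.000459, n = 5874). These p-values treat elements as independent and hold no error between libraries. With elements of at least 45% GC alone, the odds ratio against intergenic elements was 0.800 (p = 0.0987, n = 4979), which no longer passed the threshold of 0.05.

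**Figure D1:**
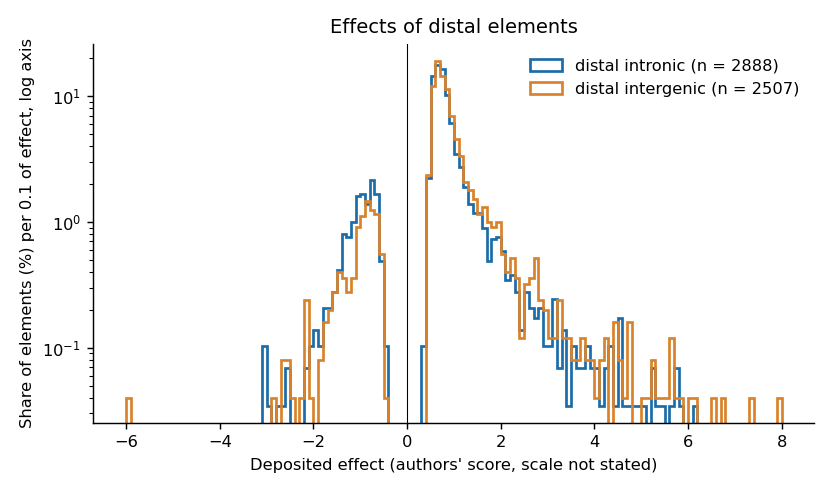
Share of distal intronic and distal intergenic elements (vertical, percent per 0.1 of effect, log axis) by the authors' deposited effect (horizontal, a score with no stated scale). Both groups have an empty gap around 0, and negative effects make up 13.4% of the intronic and 9.21% of the intergenic elements.

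The sign of the effect followed base composition. At 40 to under 45% GC, 227 of 501 members (45.3%) were negative, and at 45 to under 50%, 76 of 768 (9.90%). The share fell to 2.48% at 50 to under 55% and 0.868% (4 of 461) at 55 to under 60%. It then rose again, to 43.1% (28 of 65) at 65 to under 70% and 82.1% (23 of 28) at 70% or more. The members between 45 and 65% GC, 2294 in all, were 95.2% positive, and of the 387 negative members 227 lay below that range and 51 above it. In the model of direction over single-copy members, 4 GC categories differed from 50 to under 55% (odds ratio 0.0265 at 40 to under 45% and 0.00472 at 70% or more, largest adjusted p 2.1e-09 over the 4, n = 2746).

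The gap between introns and intergenic sequence lay at the same 2 ends. At 40 to under 45% GC, 32.3% of intergenic elements were negative against 45.3% of intronic ones, at 65 to under 70% 23.8% against 43.1%, and at 70% or more 56.2% against 82.1%. A fit with interaction terms for the 2 ends was not among the planned ones, and GC was in categories of 2.5 percentage points. Its ends are those at which these shares differ, so its p-values describe this gap and are no independent test of it. In this fit the odds ratio of a positive effect was 0.976 from 45 to under 65% GC (0.737 to 1.29, p = 0.868, n = 5874 in the fit). The odds ratio was smaller by a factor of 0.620 under 45% GC (interaction p = 0.0181, n = 5874) and by a factor of 0.284 at 65% or more (interaction p = 0.00184). The 51 negative members of 65% GC or more had a median effect of -1.25, a median of 69 CpG and a median width of 675 bp, against 29 CpG and 362.5 bp in the 42 positive ones. Of the 51, 29 lay within 1000 bp of a start in the comprehensive annotation, which the choice of members did not use, as did 19 of the 42. Over all 2888 members, 381 lay that close to such a start. The part of such starts in the direction was not tested. The 227 negative members under 45% GC had a median of 3 CpG, the same as the 274 positive ones, and 9 of them lay within 1000 bp of such a start.

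**Figure D2:**
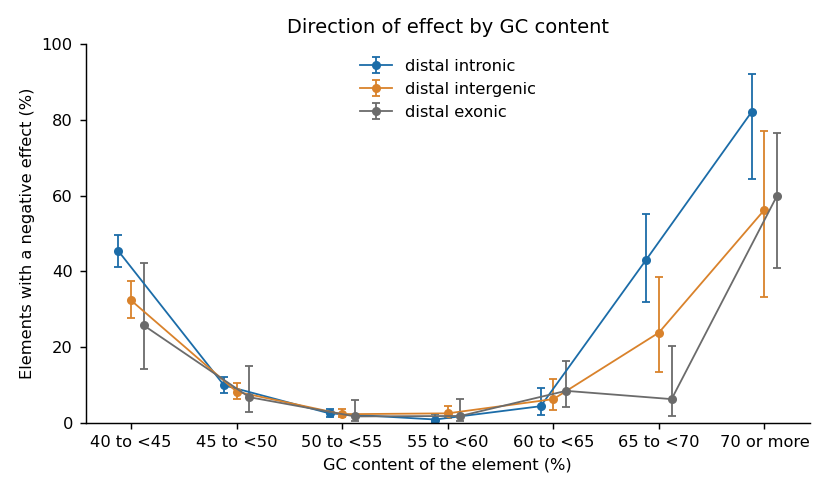
Share of elements with a negative effect (vertical, percent) in categories of GC content (horizontal) for distal intronic, intergenic and exonic elements, with 95% Wilson intervals as bars. The intronic share is lowest at 55 to under 60% GC (0.868%) and highest at 70% or more (82.1%), and it stands above the intergenic share at both ends.

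Large positive effects went with sequence that occurs more than once in the genome. An element was called multi-copy where the 300 bp around its centre matched a further place at 95% identity or more over at least 240 bp. The 142 multi-copy members (4.92%) were all positive, with a median effect of 2.01. An effect over 2 was found in 73 of them (51.4%) and in 62 of the 2746 single-copy members (2.26%). Over all members it was found in 135 (4.67%), beside 5.37% of all listed regions. In a linear model of the positive effects, being multi-copy added 1.62 (95% interval 1.40 to 1.83, adjusted p = 3.6e-46, n = 2501). The highest multi-copy members lay in introns of Gm1604a (6.10, 2 copies), Gm8871 (5.81, 16 copies), Gm49673 (5.78, 2 copies), Sp140 (5.75, 3 copies) and Gm8206 (5.65, 28 copies). Sp140 encodes a nuclear-body protein of lymphocytes. How reads that fit several places were counted is not stated, and its part in these effects was not tested.

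Tandem arrays were a second feature of the highest effects. The comparison was made after the highest elements had been seen, so it is a description. Of 2708 members of at least 100 bp, 11 matched themselves at 70% or more of positions at a shift of 10 to 100 bp, against a median of 32.0% over all members. All 11 were single-copy by the rule above and positive, with a lowest effect of 1.49 and a median of 2.84. The 2571 single-copy members of that width without such an array had a median effect of 0.70. Among single-copy members with an effect over 2, 9 of the 57 of at least 100 bp were arrays. One was the element of Trim55, a muscle ubiquitin ligase (3.66, 74.6% at a shift of 19 bp). Other high single-copy elements, in introns of Sfi1 (4.22), 4930401O12Rik (4.09), Enox1 (3.70) and Ick (3.39), reached 35.0% to 66.2%.

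The 8 lowest members held no such array. After Prdm11 and Gm48099, which held a second element at -2.97, the lowest were in Adcy6 (an adenylate cyclase, -3.02), Dlg2 (a synaptic scaffold, -2.71), Celf4 (a neuronal RNA-binding protein, -2.62), Bsph2 (a sperm-binding protein, -2.56) and Macf1 (a cytoskeletal linker, -2.52). Prdm11, Adcy6, Celf4 and Macf1 had 67.8% to 73.1% GC, and Gm48099, Dlg2 and Bsph2 had 40.5% to 44.5%. All 8 thus came from the outer GC ranges in which negative effects were frequent. Their shares of self-matching bases were 31.8% to 35.2%, near the median of all members.

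Among positive elements, the effect in introns was lower than in intergenic sequence by 0.08 (difference -0.08, SE 0.0199, p = 8.1e-05, n = 5214, linear model with the same covariates and robust errors). The difference was -0.02 (95% interval -0.04 to 0.01, p = 0.185, n = 4852) when single-copy elements alone were compared. Multi-copy elements made up 8.06% of the intergenic and 4.92% of the intronic elements. Against exonic elements the difference was 0.04 (95% interval -0.01 to 0.09, p = 0.14, n = 5214).

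Of the terms for position, distance from the nearest start of any gene passed the test for direction, and those for place in the host gene did not. Of the members, 2728 had their centre in an intron of a basic transcript of the host gene, and 974 of these (35.7%) were in the first intron. First introns were 88.1% positive and later introns 86.3%, and the term was not called (odds ratio 1.09, 95% interval 0.808 to 1.47, adjusted p = 0.670, n = 2746 single-copy members). The share of positive members was 90.6% of 810 at 1000 to 5000 bp from the nearest annotated start, 87.1% of 1221 at 5000 to 20000 bp and 82.0% of 857 further away. Each doubling of that distance multiplied the odds of a positive effect by 0.894 (0.824 to 0.970, adjusted p = 0.0184, n = 2746), while the size of positive effects was higher by 0.02 (adjusted p = 0.00241). Among members with the authors' adjusted p below 0.001, the term for direction was not called (odds ratio 0.882, 0.773 to 1.01, adjusted p = 0.162, n = 1383 with multi-copy members, which the fit leaves out). Of the other terms for size, masked share was also called (0.03 per 10 percentage points, adjusted p = 0.00899, n = 2501), as was log2 width (-0.03, adjusted p = 0.0132, and -0.02 with adjusted p = 0.263 in single-copy members and adjusted p = 0.076 in introns of protein-coding genes). Members in protein-coding hosts (2564) were 86.6% positive and those in other hosts (324, among them 197 in lincRNA genes) 86.4%. The 160 members inside a gene but outside its basic introns were 80.6% positive, and 142 members lay in an exon of the comprehensive annotation.

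No consensus sequence passed the test for direction once base composition was held fixed. For 33 consensus sequences with at least 20 members, 0 (0.0%) were called for direction at an adjusted p below 0.05, and 3 had an unadjusted p below 0.05 (CRE, STAT and KLF). The strongest of these was STAT (TTCNNNGAA, the palindrome bound by STAT dimers). It was present in 498 of the positive members (19.9%) and 57 of the negative ones (14.7%), with an odds ratio of 1.71 (1.21 to 2.41, adjusted p = 0.0749, n = 2888). It was called when the search was limited to the central 300 bp (odds ratio 2.20, adjusted p = 0.00391, n = 2888) and when multi-copy members were left out (1.87, adjusted p = 0.0150). With GC as a linear and squared term the adjusted p was 0.154, and with the authors' adjusted p below 0.001 it was 0.584. At 40 to under 45% GC, where both signs were frequent, STAT stood in 70 of 274 positive members (25.5%) and 35 of 227 negative ones (15.4%), with an odds ratio of 2.03 and adjusted p = 0.0635 (n = 501).

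The sites below show matches at both ends of the effect range. They are the 3 highest and the 3 lowest single-copy members with a STAT match in that GC range, chosen after the values were seen, with 41 bases around the match and the match in capitals.
2010111I01Rik, chr13:63223647-63223687: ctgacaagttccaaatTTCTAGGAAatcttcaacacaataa
Ppp3cc, chr14:70263447-70263487: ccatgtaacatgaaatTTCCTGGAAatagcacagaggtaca
Sorcs1, chr19:50270623-50270663: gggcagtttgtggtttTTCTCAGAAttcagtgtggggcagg
Dlg2, chr7:92420781-92420821: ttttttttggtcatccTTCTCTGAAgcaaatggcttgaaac
St6gal1, chr16:23280288-23280328: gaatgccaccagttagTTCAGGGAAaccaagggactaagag
Scn8a, chr15:100905290-100905330: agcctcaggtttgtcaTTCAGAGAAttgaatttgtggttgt

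The first 3 had effects of 3.21, 1.97 and 1.83 and the last 3 of -2.71, -1.91 and -1.79. By the choice of these sites they show only that a match occurred in elements of either sign. Ppp3cc encodes a catalytic subunit of calcineurin, the phosphatase that activates NFAT, and Scn8a a neuronal sodium channel. CRE (TGACGTCA, bound by CREB and ATF factors) had the largest odds ratio. It was found in 60 positive members and 1 negative member, so its odds ratio of 11.1 had an interval of 1.46 to 84.6 and an adjusted p of 0.329. KLF had an odds ratio below 1 and was not called either.

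**Figure D3:**
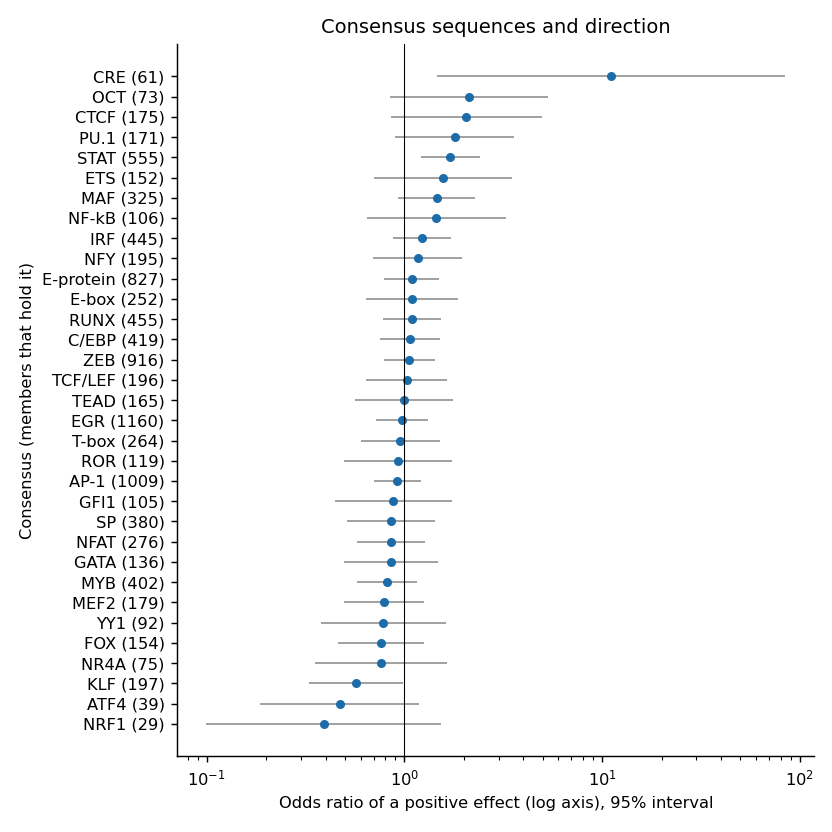
Odds ratio of a positive effect (horizontal, log axis) for members with each of 33 consensus sequences (vertical, with the number of members that hold it), with 95% intervals as lines. CRE (11.1) and STAT (1.71) lie to the right of 1 with intervals that do not reach it, and none of the 33 passed the adjusted threshold.

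AP-1 (TGANTCA) passed the test for the size of positive effects and not that for sign. In the central 300 bp it was, with no test of these shares, present in 28.4% of members and 25.1% of intergenic elements, against 15.5% of all listed regions and 4.96% of promoter regions. Over whole elements it was present in 852 positive members (34.1%) and 157 negative ones (40.6%), with an odds ratio of 0.921 (0.702 to 1.21, adjusted p = 0.848, n = 2888). For the size of positive effects AP-1 was the only one of the 33 consensus sequences called (3.03%). Positive members with AP-1 had a lower effect by 0.10 (difference -0.10, SE 0.0264, adjusted p = 0.00457, n = 2501). In single-copy members the difference was also -0.10 (SE 0.0174, adjusted p = 5.8e-07, n = 2359). The medians were 0.71 in the 800 single-copy positive members with AP-1 and 0.75 in the 1559 without, and an effect over 1 was found in 14.8% and 19.8%. Their median widths were 525 and 425 bp, and width was a term of the model. In single-copy members PU.1 (GAGGAAGT, an ETS-family site of myeloid and B cells) was called too, with a difference of -0.07 (adjusted p = 0.0118, n = 2359), and over all positive members it was not (-0.02, adjusted p = 0.901).

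No consensus sequence passed the test of positive distal intronic against other positive distal elements. Of 34 tested over 5214 elements, 0 (0.0%) were called, and RUNX, ZEB and CTCF had an unadjusted p below 0.05. CTCF, bound at chromatin loop anchors, stood in 6.76% of intronic and 8.81% of other positive distal elements (odds ratio 0.742, 0.603 to 0.913, adjusted p = 0.165, n = 5214). RUNX (TGTGGTT) stood in 15.5% and 13.3% (odds ratio 1.19, adjusted p = 0.353, n = 5214), and ZEB in 32.5% and 35.7% (0.873, adjusted p = 0.353).

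The members lay in 2236 host genes, of which 1783 held 1 member each. Of the 453 with more, 332 held only positive members, 24 only negative ones and 97 both. Gm20388 held 17, all positive (0.48 to 1.27), but its gene model runs over neighbouring genes, with the members 75597 to 4174884 bp from its start. By the host rule, no shorter protein-coding gene had a basic transcript over these centres. All 17 nevertheless counted as intronic in the comparison with intergenic elements. Next came Bach2, a repressor that restrains effector differentiation of T cells, with 7 members, all positive. The Bach2 elements lay in introns 1, 2 and 3 with effects of 0.45, 0.54, 0.59, 0.67, 0.76, 0.81 and 1.06, a narrow range with the highest at 112896 bp from the gene's start. Gfod1, Gm26848, Hdac4, Vgll4 and Zmiz1 held 6 each. The Gfod1 members were all positive, with 5 from 0.62 to 0.96 and 1 of 1.82. The Gm26848 members had effects of 1.49 to 2.99, and each was multi-copy. Hdac4, a class IIa histone deacetylase, held 5 positive members (0.54 to 0.87) and 1 of -0.96 at 44.7% GC. Zmiz1, a coactivator of Notch1 in T cell development, held 5 positive members (0.53 to 0.97) and 1 of -1.49 at 69.6% GC. The negative members of both genes thus had outer GC values.

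**Figure D4:**
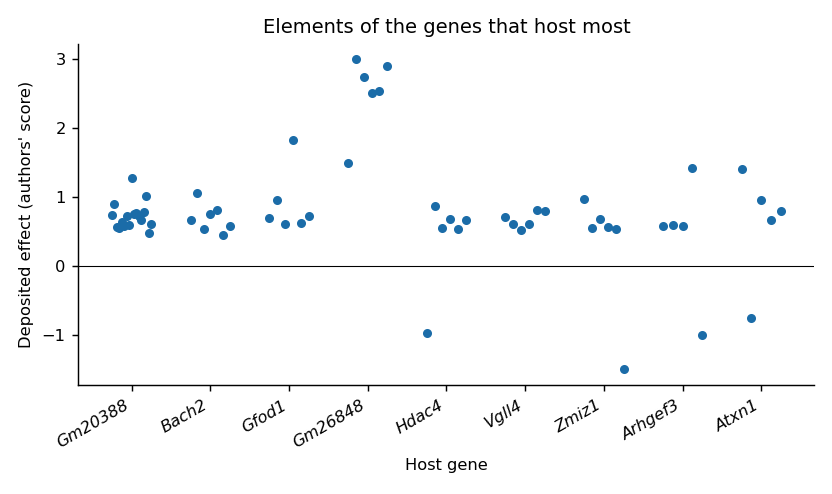
Deposited effect (vertical, the authors' score) of each distal intronic element in 9 of the host genes with most members, from the most on the left, with 1 point for each element in order along the chromosome. The 6 elements of Gm26848 lie between 1.49 and 2.99, and Hdac4, Zmiz1, Arhgef3 and Atxn1 each hold 1 negative element.

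Genes of T cell function were examined by lists, whose direction and size are given beside those of all members (86.6% positive, median 0.71) without a test. The share of all annotated genes that host a member was not computed, and intron lengths of the lists were not compared. Counts of hosting genes therefore have no baseline and do not set one list apart from another. Of 34 genes of T cell receptor signalling, 7 hosted 9 members, 8 of them positive, with a median of 0.62. They included 2 in Prkcq, the kinase PKC-theta (1.09 and 0.62), 2 in the kinase gene Fyn (0.61 and 0.59), and 1 each in the kinase gene Lck (0.60), the receptor chain gene Cd247 (0.70) and the adaptor gene Grap2 (0.80). The negative one was in Cblb, a ubiquitin ligase that restrains receptor signalling (-0.63, at 40.4% GC). Most of these lay at or below the median of all members.

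Of 29 Th1 and T helper regulators, 5 hosted 9 members, 8 of them positive, with a median of 0.75. Runx1, whose factor acts with T-bet, held 0.94 and 0.78. Gata3, the Th2 master regulator, held 0.91 and 0.79. Stat4, which carries the interleukin-12 signal, held 0.72 and 0.57, the first with STAT, RUNX and T-box matches. Among the genes of this list that hosted no member were Tbx21, Eomes, Ifng, Il12rb1 and Il12rb2. Il4, the Th2 cytokine gene, held 0.71, and Rora held 0.75 and -0.69, the latter at 44.9% GC. The higher Gata3 element lay 1013 bp from an annotated start, near the lower limit of distance, and in no basic intron.

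Of 33 T cell identity and lymphoid factor genes, 16 hosted 26 members, and all 26 were positive, with effects of 0.45 to 1.56 and a median of 0.68. Tox2, a relative of the factor Tox, had the highest (1.56, intron 3 of 8), followed by a Bach2 element (1.06) and 1 in the ETS gene Fli1 (1.00). Nfatc2 held 3 (0.92, 0.86 and 0.60), Lef1 2 (0.68 and 0.64), and Batf 1 (0.74). Ikzf1, which encodes Ikaros, held 1 of 0.48. The 26 members had a median GC of 50.1%, near the 50.9% of all members. Apart from the Arid5b element (41.2% GC, 0.83), all of them lay between 45 and 65% GC. In that range 95.2% of all members were positive.

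Of 33 cytokine and costimulatory receptor genes, 10 hosted 14 members, 11 of them positive, with a median of 0.63. The adhesion receptor gene Cd44 held 1.40 and 0.82, Il4ra 0.89 and 0.84, and Il21r 0.84. The 3 negative members were both elements of Cd226, a costimulatory receptor (-0.92 and -0.70), and 1 of the 2 of Havcr2, which encodes TIM-3 (-0.64 beside 0.67). The Cd226 elements had 40.95% and 41.67% GC and the negative Havcr2 element 45.11%. Of 26 NF-kB, AP-1 and MAP kinase genes, 5 hosted 7 members, all positive, with a median of 0.68. The highest was assigned to Junb, an AP-1 subunit gene (1.87), 2230 bp from its start and at 69.1% GC, but its centre lay in no basic intron. Others lay in Nfkb1 (0.75 and 0.63), Map4k4 (0.75 and 0.44) and Map3k14 (0.58).

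Of 28 chromatin modifier genes, 13 hosted 27 members, 25 of them positive, with a median of 0.72. Hdac7, a class IIa deacetylase expressed in thymocytes, held the highest (1.48, with AP-1 and STAT matches, and 0.58), followed by Kdm2b (1.11). Kdm6b, the H3K27 demethylase, held 4, from 0.64 to 1.04. Besides the Hdac4 element, the negative one was in the remodeller gene Chd7 (-1.05 at 41.0% GC, beside 0.51). As lists of other cell types, 4 of 22 B cell, myeloid and stromal genes hosted 6 members, all positive (median 0.86), including Ebf1 (1.05 and 0.56) and Pecam1 (1.08 and 0.93). Of 20 neuronal genes, 3 hosted 1 member each, in Rbfox1 (2.22), Cacna1a (0.73) and Dlg2 (-2.71).

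**Figure D5:**
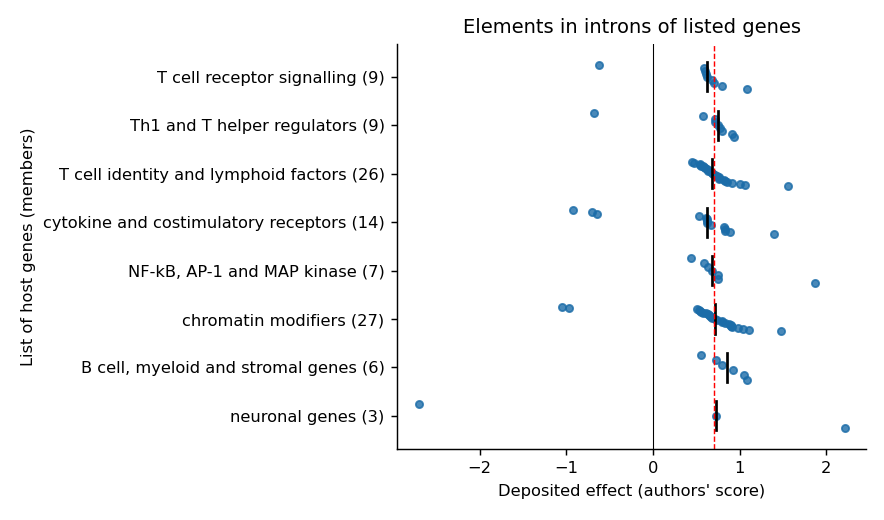
Deposited effect (horizontal, the authors' score) of each distal intronic element, by list of host genes (vertical, with the number of members), with black bars for list medians and a red dashed line for the median of all members (0.71). List medians lie between 0.62 and 0.86, and all 26 elements of the T cell identity list are positive.

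Of 78 pairs of neighbouring members under 1000 bp apart, 63 were both positive, 12 both negative and 3 of opposite sign, where 86.6% of all members were positive and the agreement of neighbours was not tested. Across the 19 chromosomes the positive share ran from 78.5% to 94.1% with a median of 85.4%. Elements just inside and outside the limits of the class can be set side by side. Members 1000 to 1200 bp from a start were 83.3% positive (90 elements), and elements just excluded at 800 to 1000 bp were 78.0% positive (109). At 40 to under 42% GC, 40.7% of 182 members were positive, against 33.3% of 87 excluded at 38 to under 40%. Members with 40 to 50% masked bases were 84.7% positive (111), against 95.5% of the 88 excluded at over 50 to 60%.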

How the data were processed

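Output libraries from 2 replicates of Th1 STARR-seq entered 1 table of regions on mm10, per the file headers. Each row holds, as deposited, the region's effect (a score), p-value, q-value and width. The sources used here do not name the aligner, caller, normalization or test. Sequence came from GRCm38 and genes from GENCODE M21. A member's host was the protein-coding gene first, then one with a basic transcript over the centre, then the shortest. Direction was fitted by logistic and size by linear regression (statsmodels 0.14.6, Python 3.11.15). Covariates were GC in categories of 5 points (2.5 in the fit with interaction terms), CpG observed over expected, log2 width and masked share. Copies were found with minimap2 2.31-r1302. P-values are two-sided, with Benjamini-Hochberg adjustment and a threshold of 0.05. The model of consensus sequences and direction was tried on simulated directions, with the more frequent sequences only. The other models were not tried on simulated data. Named elements were the highest and lowest single-copy effects, the highest multi-copy ones, hosts with most members, and members in the gene lists. The members, lists and consensus sequences were chosen with earlier results of these data known. Alternatives were a stricter adjusted p, single-copy elements, other GC terms, the central 300 bp, merged neighbours and subsets by GC and host. Unlisted regions, the input and signal per library were not used here. Some elements that the rule names are not reported here.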

Additional observations from a re-analysis of the deposited data

How the results depend on the processing

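No paired analysis was possible because there was 1 group and both libraries were combined in the deposited table; leaving out a replicate was not possible for the same reason. The lower odds of a positive effect in introns (0.704) kept their direction, and passed the threshold under each alternative run except with 45% GC or more (0.800). In the fit with interaction terms, the odds ratio at 45 to under 65% GC was 0.976 and did not pass. That fit was not planned and split GC where the gap is seen in the shares. It describes the lower odds at the outer GC ranges of these elements and does not test them independently. The difference in positive effect between introns and intergenic sequence was -0.016 in single-copy elements and no longer passed. With an adjusted p below 0.001, 0 position terms were called for direction, against 1 (start distance, odds ratio 0.882 there), and with single-copy members alone 2 terms were called for size, against 4, since the multi-copy term is not in that fit and log2 width was not called. Log2 width was also not called in introns of protein-coding genes (-0.03, adjusted p = 0.076, n = 2221 positive members). For direction, 1 consensus sequence (STAT) was called in the central 300 bp and 1 (STAT) in single-copy members, against 0, and for size 2 (AP-1 and PU.1) in single-copy members, against 1. Terms that were not called turned direction in 7 cases. With an adjusted p below 0.001 these were CpG observed over expected (odds ratio 0.618 for direction, -0.0052 for size), first intron (0.956) and no basic intron (-0.0047 for size). CpG observed over expected was -0.0071 for size in single-copy members, T-box 1.16 in the central 300 bp and RUNX 0.939 at 40 to under 45% GC. Apart from the multi-copy term, the cause of these changes was not tested. The 40 to 45% GC subset and the single-copy fit of consensus and size were chosen after seeing the data. The fit with interaction terms was not planned either. With no depth or library values, a single effect has no error beside the deposited p, and the members hold no elements of small effect.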
